A study of Arabidopsis thaliana with 30 samples.

Results

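The response of detached Arabidopsis thaliana leaves to a vascular-inducing stimulus was compared with mock treatment after 10 h, the latest time sampled. The comparison rests on 6 of the 30 samples of the series, chosen by the treatment and time in their labels: 3 libraries of stimulated leaves and 3 of mock-treated leaves. The stimulated leaves were kept in incubation buffer with 5% glucose and 0.2% DMSO to which 20 µM bikinin, 2.5 µg/mL 2,4-D and 0.5 µg/mL kinetin were added. The mock leaves were kept for the same 10 h in the same buffer with glucose and DMSO but without these agents. Bikinin inhibits GSK3 kinases and so activates brassinosteroid signalling, 2,4-D is a synthetic auxin and kinetin is a cytokinin. Since the agents were given together, their separate contributions cannot be told apart. All samples were leaves 1 and 2 of 10 d old Col-0 seedlings, with 18 to 20 leaves pooled per sample, so each library mixes every cell type of the leaf. The labels call the samples biological replicates but do not say whether they came from separate sowings, so the p-values speak only of the spread among these libraries.

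In plants, auxin and cytokinin together specify the procambium, the dividing stem cell tissue from which xylem and phloem form, and inhibition of GSK3 kinases releases procambial cells toward differentiation. In cultured leaves this combination of agents is used to turn mesophyll cells toward vascular fates, a change in which photosynthetic cells re-enter division, pass through a procambium-like state and then form xylem vessels or phloem sieve elements. Progress through the division cycle is read from 2 sets of genes: those for DNA replication are transcribed as cells pass from G1 into S phase, and those for mitotic cyclins, mitotic kinases and cytokinesis as cells pass from G2 into mitosis. Leaf mesophyll is known for its very high output of RNA for light harvesting and carbon fixation.

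RNA was sequenced from ribosome-depleted, strand-specific libraries, and the 6 libraries held 16616243 to 21059388 deposited counts each, of which 29.9% to 36.9% fell on mitochondrial loci. Leaf identity was clear from the RNA of the Rubisco small subunit gene RBCS1A, at 3742 to 10880 CPM (counts scaled to the library size). The root markers PLT1, PLT2 and COBL9 had at most 4 counts in any of the 6 libraries. Of the 6 root list genes 3 had enough counts to be tested. Among them were SHR, at 5.98 to 12.9 CPM, and SCR, at 9.46 to 33.1 CPM, both also active in leaf bundle sheath. Both libraries of replicate 3 differed from the other 4. Plastid loci held 0.632% to 0.872% of counts in replicate 3 and 2.24% to 3.07% in replicates 1 and 2, and rRNA and tRNA loci took 0.0371% to 0.112% and 0.231% to 0.831%. The first principal component of the 6 libraries (54% of the variance) separated stimulus from mock, and the second (28.8%) separated replicate 3 from the others. The labels name no batch, and the part that this difference plays in the results was not tested. Results that depend on it are therefore also given for replicates 1 and 2 alone and for the replicate 3 pair alone.

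Of 21052 genes tested, 2050 (9.74%) were higher and 1967 (9.34%) were lower in stimulated leaves at an adjusted p under 0.05 (edgeR quasi-likelihood test, n = 3 against 3, spread estimated over all 30 libraries). Of these 4017 genes (19.1%), 1117 were at least 2-fold higher and 1021 at least 2-fold lower, and the median log2 fold change of all genes tested was 0.03. The sign was shared by all 3 same-numbered pairs for 3996 of them, and 3814 were also called, with the same sign, when only replicates 1 and 2 were fitted. Entering the replicate number as a block raised the calls to 4395 higher (20.9%) and 3923 lower (18.6%), among them all 2050 and all 1967 calls of the unblocked fit. The numbers of calls fell to 948 higher and 845 lower when only the 6 libraries of 10 h set the spread. Leaving out 1 library gave as few as 1122 lower genes (stimulus replicate 3), and 1274 without stimulus replicate 1 and 1298 without mock replicate 3. CPM values below are scaled by TMM and are not divided by gene length, so levels are compared between libraries for each gene and not between genes.

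Genes known to respond to auxin and cytokinin had the largest list medians. The lists were chosen with earlier results of these data known, so this is no independent check of the treatment labels. Of 14 auxin response genes tested, 12 rose and none fell, against 9.74% of all genes higher. The median log2 fold change was 4.73, against 0.03 for all genes. GH3.3 (AT2G23170), which encodes an enzyme that conjugates auxin to amino acids, had 892, 1004 and 1118 CPM in stimulated leaves, against 1.47, 1.14 and 5.98 CPM in mock leaves (log2 fold change 8.46, SE 0.96, adjusted p = 2.21e-06). IAA5, an Aux/IAA repressor of auxin signalling, had 112, 111 and 131 CPM in stimulated leaves, against 0.706, 1.08 and 1.89 CPM in mock leaves (6.59, SE 0.39, adjusted p = 7.06e-11). For both genes every stimulated library lay far above every mock library. Of 11 cytokinin response genes tested, 8 rose and none fell, and 5 rose when mock replicate 1 or mock replicate 2 was left out. The median was 3.8, with 5.24 in replicates 1 and 2 and 2.64 in the replicate 3 pair. ARR5, a type-A response regulator that dampens cytokinin signalling, had 14.5, 12.3 and 23.6 CPM in stimulated leaves, against 0.163, 0.0569 and 0.550 CPM in mock leaves (6.03, SE 0.97, adjusted p = 0.000142). The cytokinin oxidase genes CKX3 and CKX4, whose enzymes degrade cytokinin, rose with it, with log2 fold changes of 5.14 and 3.03.

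Brassinosteroid synthesis genes, which active brassinosteroid signalling is known to repress, moved the other way. Of 7 tested, 4 fell, and 6 fell with the replicate block, against 9.34% and 18.6% of all genes lower. The median log2 fold change was −3.18, with −2.84 in replicates 1 and 2 and −4.74 in the replicate 3 pair. DWF4, the rate-limiting step of the pathway, had 3.88, 5.86 and 0.761 CPM in stimulated leaves, against 36.7, 36.6 and 23 CPM in mock leaves (−3.18, SE 0.85, adjusted p = 0.0114). The groups did not overlap, stimulated replicate 3 was the lowest of the 6 libraries, and the call was lost without it (−2.73). CPD had 10.2, 14.0 and 1.25 CPM in stimulated leaves, against 36.9, 35.7 and 34.7 CPM in mock leaves, and passed with the block (adjusted p = 0.00265) but not without it (0.0631). The count of 4 depended on single libraries: it was 2 without mock replicate 1, mock replicate 2 or stimulus replicate 1, and 1 without stimulus replicate 3.

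**Figure D1:**
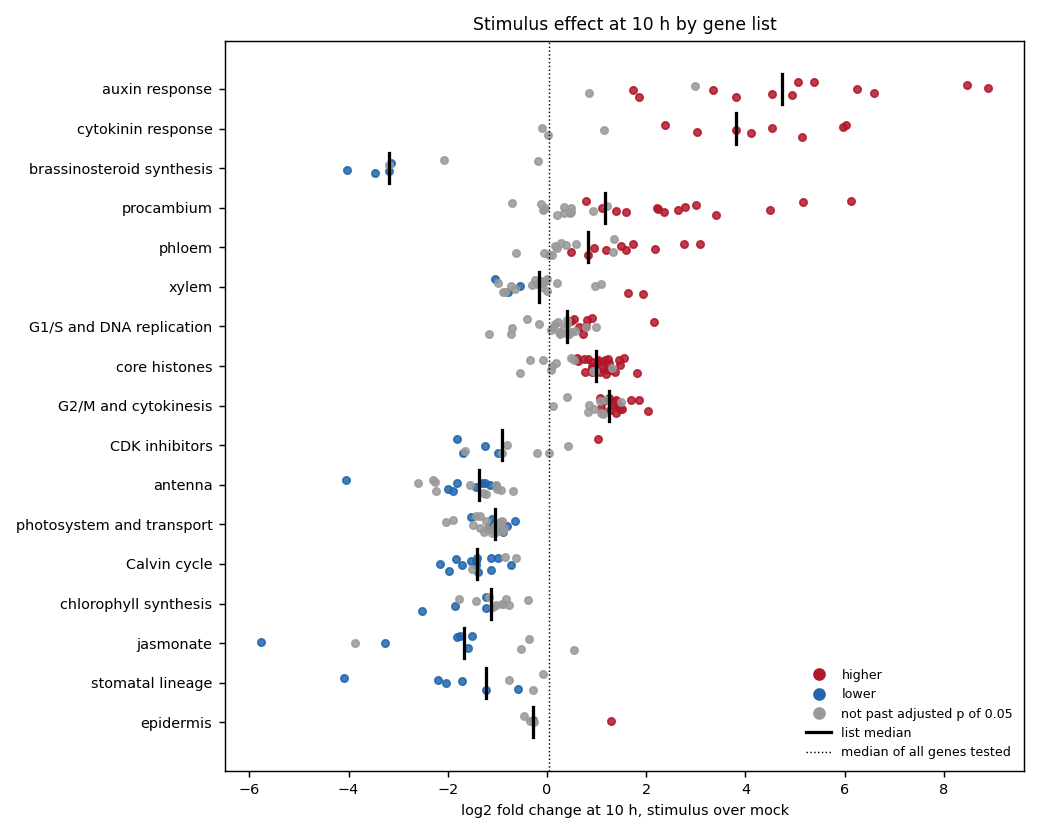
Log2 fold change at 10 h (stimulus over mock) of each tested member of 17 gene lists, 1 point per gene, coloured by whether it passed an adjusted p of 0.05; thick bars are list medians and the dotted line is the median of all genes tested, 0.03. Auxin and cytokinin response, procambium, core histone and G2/M lists lie mostly to the right, and brassinosteroid synthesis and the 4 photosynthesis lists lie to the left.

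Beyond these lists, the 10 largest increases included a pair of genes for ethylene precursor synthesis. ACS4 had 36.2, 33.1 and 59.9 CPM in stimulated leaves, against 0.0543, 0.0569 and 0.305 CPM in mock leaves (log2 fold change 8.26, SE 0.58, adjusted p = 2.01e-09), and ACS5 rose by 6.75 (SE 0.61). These enzymes make the direct precursor of ethylene. ROXY2 (AT5G14070), a glutaredoxin gene known from anther development, had 4.87, 4.51 and 5.54 CPM in stimulated leaves and no count in any mock library. Against a floor of 3 counts per library it was at least 28.9-fold higher in stimulated leaves. The Dof factor gene AT5G66940 had 241, 330 and 132 counts in stimulated libraries against 0, 0 and 1 in mock libraries, and WVD2, a microtubule-associated protein gene, had 138, 133 and 56 counts against 2, 0 and 0. Beside GH3.3 and IAA5, the other members of the 10 were GH3.2, AT5G62280 and AT3G26760, with log2 fold changes of 8.89, 7.29 and 6.91.

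Of the 10 largest decreases, 5 kept their call when any 1 of the 6 libraries was left out: VSP2, AT5G22580, CYP710A2, CSLA01 and AT5G57785, with log2 fold changes of −5.76 to −4.46. VSP2, a vegetative storage protein gene induced by jasmonate, had 0.765, 1.76 and 0.163 CPM in stimulated leaves, against 34.7, 75.0 and 43.0 CPM in mock leaves (log2 fold change −5.76, SE 1.02, adjusted p = 0.000396). CSLA01, a cellulose synthase-like gene, had 0.765, 0.902 and 2.55 CPM in stimulated leaves, against 36.9, 44.7 and 53.8 CPM in mock leaves (−5.01, SE 0.70, adjusted p = 2.75e-05). Stimulated and mock libraries were widely separated for both. BT2, which encodes a BTB and TAZ domain protein, had 0.929, 0.328 and 1.63 CPM in stimulated leaves, against 5.92, 4.67 and 83.9 CPM in mock leaves, so its log2 fold change of −5.06 was set by mock replicate 3 and was −2.49, not past the threshold, without it. MYB48 shared this pattern, with 0.815, 0.683 and 10.9 CPM in mock leaves and a log2 fold change of −3.42 without mock replicate 3, not past the threshold. Both calls were also lost without any 1 of the stimulated libraries. MBP2, NATA1 and SESA5 completed the 10 and lost their calls in 2 to 4 such fits.

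Among vascular genes, those of the procambium were described first. Of 28 members 26 could be tested, and 14 of these rose and none fell, or 17 with the replicate block and 20 in replicates 1 and 2 alone, against 9.74%, 20.9% and 19.7% of all genes higher. Stimulated libraries all lay above mock libraries in 14 of the 26, against 18.7% of all genes. Their median log2 fold change was 1.16, and it was 1.06 both in replicates 1 and 2 and in the replicate 3 pair. In bulk leaf RNA, more cells of a type and more RNA per cell cannot be told apart.

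Transcription factors of the procambium gave 7 calls among 16 tested, all higher. LBD4 (AT1G31320), which acts at the boundary of procambium and phloem, had 52.1, 42.8 and 25.4 CPM in stimulated leaves, against 1.03, 0.854 and 1.46 CPM in mock leaves (log2 fold change 5.16, SE 0.43, adjusted p = 2.88e-08). TMO6 (AT5G60200), a Dof factor downstream of MONOPTEROS, had 69.1, 69.2 and 74.1 CPM in stimulated leaves, against 7.12, 5.81 and 7.08 CPM in mock leaves (3.41, SE 0.19, adjusted p = 4.31e-11). ATHB8 (AT4G32880), an HD-ZIP III factor and early marker of procambium, had 159, 140 and 135 CPM in stimulated leaves, against 33.5, 31.5 and 27.8 CPM in mock leaves (2.23, SE 0.13, adjusted p = 5.45e-11). In all 3 genes the stimulated libraries lay above every mock library. DOF6 and DOF2.4, also Dof factors, rose by 2.21 and 2.63, and ANT, a growth-promoting AP2 factor active in the cambium, rose by 2.35.

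Other factors of the list differed from these. Of the 5 HD-ZIP III genes, REV, with 61.5, 65.1 and 102 CPM in stimulated leaves against 34.1, 38.9 and 33.6 CPM in mock leaves, rose alongside ATHB8 (log2 fold change 1.1, SE 0.20), whereas PHB, PHV and CNA had values of 0.47 to 0.49 that did not pass. PHV passed with the block (adjusted p = 0.000974), and all 3 passed in replicates 1 and 2 only, at 0.49 to 0.69. MP (MONOPTEROS), the auxin response factor that initiates procambium, had 164, 155 and 71.5 CPM in stimulated leaves, against 68.3, 75.9 and 24.9 CPM in mock leaves. Replicate 3 was low in both arms, so the groups overlapped, and the adjusted p was 0.166 without and 7.06e-09 with the replicate block. WOX4, a homeobox factor that maintains dividing cambium, had 2.24, 3.40 and 0.217 CPM in stimulated leaves, against 3.8, 3.19 and 2.63 CPM in mock leaves, and did not pass (−0.70, adjusted p = 0.622). TMO5 and LHW, whose paired proteins drive cytokinin synthesis in young vascular tissue, had log2 fold changes of −0.04 and −0.12 and did not pass.

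Signalling genes of the procambium gave 7 calls among 10 tested, also all higher. LOG3 (AT2G37210), an enzyme that releases active cytokinin, had 175, 154 and 58.7 CPM in stimulated leaves, against 1.63, 3.3 and 0.611 CPM in mock leaves (log2 fold change 6.12, SE 0.95, adjusted p = 9.42e-05). Replicate 3 was the lowest library of its arm, yet the arms did not overlap. PXY (AT5G61480), the receptor kinase for the TDIF peptide that keeps procambial cells dividing, had 116, 104 and 83.9 CPM in stimulated leaves, against 43.8, 45.0 and 27.5 CPM in mock leaves (1.38, SE 0.26, adjusted p = 0.00068). Of the peptide precursor genes, CLE44 rose by 1.59, with the limit that a locus on the same strand overlaps it, and CLE41 was at 12.2 to 16.5 CPM in stimulated leaves and 11.5 to 14.2 CPM in mock leaves and did not pass. AHP6, a pseudo-phosphotransfer protein that blocks cytokinin signalling, had 34, 32 and 21 counts in stimulated libraries against 1, 2 and 0 in mock libraries, a ratio of 24.9 with an exact 95% counting interval of 8.23 to 123.

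Phloem genes comprised regulators of sieve element formation and effectors of finished phloem. Of 21 tested, 10 rose and none fell, against 9.74% and 9.34% of all genes. The median log2 fold change was 0.82 (0.65 in replicates 1 and 2, 0.76 in the replicate 3 pair). Of the 14 regulators 8 rose (median 1.33), and of the 7 genes that act in finished sieve elements or companion cells 2 rose (median 0.09). With the replicate block 11 of the 14 and 2 of the 7 rose, and 1 of the 7, FTIP1, fell (−0.62, adjusted p = 0.0199), against 20.9% and 18.6% of all genes. The blocked counts for the 7 effectors are thus near those of all genes.

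Regulators of early phloem were led by SMXL5 and BRX in size. BRX (AT1G31880), a membrane-associated regulator of protophloem, had 28.6, 26.0 and 34.6 CPM in stimulated leaves, against 5.87, 3.53 and 3.6 CPM in mock leaves (log2 fold change 2.77, SE 0.31, adjusted p = 1.75e-06). SMXL5 (AT5G57130), which promotes phloem formation, had 274, 199 and 101 CPM in stimulated leaves, against 27.5, 30.5 and 10.1 CPM in mock leaves (3.08, SE 0.60, adjusted p = 0.000881). CVP2, a phosphoinositide phosphatase gene needed for continuous veins, had 54.3, 46.2 and 48.5 CPM in stimulated leaves, against 14.7, 18.9 and 15.8 CPM in mock leaves (1.59, SE 0.16, adjusted p = 4.14e-07). Stimulated and mock libraries did not overlap for any of these. The CLE25 peptide gene and the CLE receptor gene BAM3 rose by 2.17 and 1.73. APL, the factor that sets phloem identity later, had 10.7, 10.1 and 18.8 CPM in stimulated leaves, against 10.7, 9.96 and 14.8 CPM in mock leaves, and did not pass (0.16, adjusted p = 0.752).

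Among phloem effectors, SUC2, the sucrose carrier of companion cells, had 103, 115 and 130 CPM in stimulated leaves, against 54.7, 47.2 and 51.6 CPM in mock leaves (log2 fold change 1.18, SE 0.20, adjusted p = 0.000259). CALS7, the callose synthase of sieve plates, rose by 0.48 (SE 0.11). SEOR1 and SEOR2, which encode the filament proteins of mature sieve elements, had log2 fold changes of 0.29 and 0.09 and did not pass, and PP2-A1, a phloem lectin gene, had −0.06.

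Of 23 xylem genes tested, 2 rose and 3 fell, near the 9.74% and 9.34% of all genes, and the median log2 fold change was −0.16. With the replicate block 4 rose and 6 fell, against 20.9% and 18.6% of all genes, so the counts are no result about the list. VND1 (AT2G18060), a NAC factor that can switch cells to vessel fate, had 4.48, 3.40 and 4.78 CPM in stimulated leaves, against 1.47, 1.02 and 0.794 CPM in mock leaves (1.93, SE 0.30, adjusted p = 0.000102). VND2, its close relative, had 14.4, 12.4 and 11.5 CPM in stimulated leaves, against 5.38, 4.1 and 2.87 CPM in mock leaves (1.63, SE 0.31, adjusted p = 0.000847). Every stimulated library was above every mock library for both. VND6 and VND7, the factors of metaxylem and protoxylem vessels, were low throughout. VND7 had 0.875, 1.07 and 0.869 CPM in stimulated leaves, against 1.3, 0.854 and 0.672 CPM in mock leaves (−0.01, adjusted p = 0.991). VND6 had a log2 fold change of −0.72 and did not pass in the main fit (adjusted p = 0.343). It passed as lower with the block (−0.79, adjusted p = 0.0259) and in replicates 1 and 2 only (−1.07, adjusted p = 0.0246).

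Genes for the vessel wall were at or below mock level. CESA4, a cellulose synthase of the secondary wall whose locus is overlapped by another on the same strand, had 8.58, 8.41 and 12.7 CPM in stimulated leaves, against 17.4, 16.4 and 17.6 CPM in mock leaves (log2 fold change −0.79, SE 0.18, adjusted p = 0.00418). CESA7 fell by 0.54 on the log2 scale (adjusted p = 0.0324), and the third subunit gene CESA8 had −0.10 and did not pass. The lignin laccase genes LAC4 and LAC17 had −0.16 and −0.05. The protease and nuclease genes of vessel cell death, XCP1, XCP2, MC9, RNS3 and BFN1, gave no call, with values of −0.88 to 0.21. XND1, a NAC factor that holds back vessel differentiation, fell by 1.05 (adjusted p = 0.0205). Its levels were low, at 0.765, 0.738 and 0.435 CPM in stimulated leaves, against 1.63, 1.37 and 1.04 CPM in mock leaves. The XND1 call was lost without mock replicate 1 (−0.89) or stimulus replicate 3 (−0.86). The fibre regulators SND1 and NST1 had together 1 count in the 6 libraries and were not tested.

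**Figure D2:**
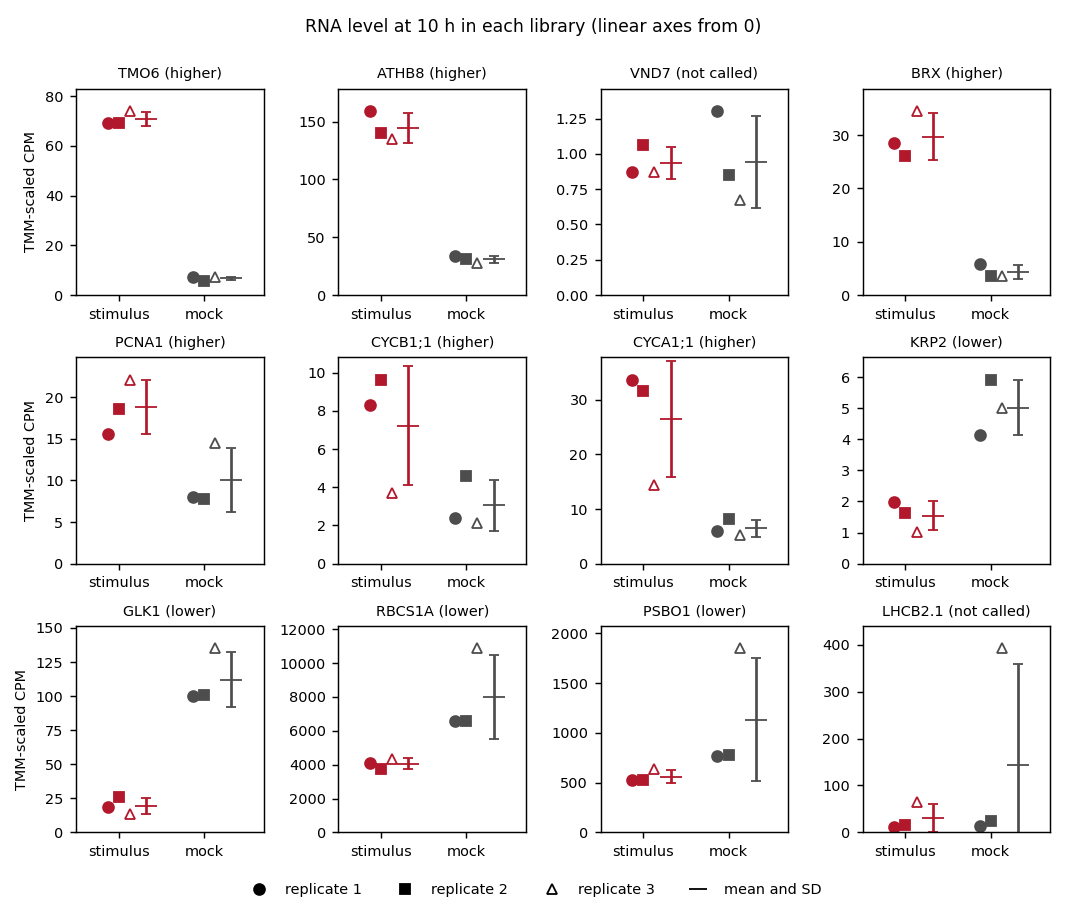
TMM-scaled CPM of 12 genes in each of the 6 libraries of 10 h, stimulus to the left of mock, on linear axes from 0; symbols mark the replicate and bars give the mean and SD of 3 libraries, cut at 0 for LHCB2.1. The vascular genes TMO6, ATHB8 and BRX separate stimulus from mock while VND7 does not, CYCA1;1 and CYCB1;1 are lower in stimulated replicate 3 than in the other stimulated libraries, and mock replicate 3 is the highest mock library for RBCS1A, PSBO1 and LHCB2.1.

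Genes of mitosis that passed were all higher in stimulated leaves. Of 26 G2/M and cytokinesis genes, 16 rose and none fell, against 9.74% of all genes higher. The median log2 fold change was 1.25, with all 26 values above 0. With the replicate block 24 rose, against 20.9% of all genes. The median was 1.34 in replicates 1 and 2 and 0.66 in the replicate 3 pair. The count of 16 depended on single libraries: it was 7 without mock replicate 3, 5 without stimulus replicate 1 and 4 without stimulus replicate 2.

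Mitotic cyclins gave 7 calls among 13, against 9.74% of all genes higher. CYCA1;1 (AT1G44110) had 33.7, 31.6 and 14.3 CPM in stimulated leaves, against 5.98, 8.25 and 5.25 CPM in mock leaves (log2 fold change 2.03, SE 0.38, adjusted p = 0.000711). CYCB1;1 (AT4G37490), the cyclin most used as a marker of dividing plant cells, had 8.31, 9.63 and 3.69 CPM in stimulated leaves, against 2.39, 4.61 and 2.14 CPM in mock leaves (1.24, SE 0.40, adjusted p = 0.0307). For both genes stimulated replicate 3 was the lowest of its arm, and for CYCB1;1 it lay below mock replicate 2. The CYCB1;1 call was lost without mock replicate 1, mock replicate 3, stimulus replicate 1 or stimulus replicate 2 and kept its direction, with log2 fold changes of 0.94 to 1.13. CYCB1;2, CYCB1;3, CYCB1;4, CYCB2;4 and CYCB3;1 rose by 1.14 to 1.47.

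Mitotic kinases, counted with the anaphase activator CDC20.1, gave 5 calls among 7, against 9.74% of all genes higher. CDKB2;1, a plant-specific mitotic kinase, had 17.6, 20.09 and 9.07 CPM in stimulated leaves, against 5.87, 6.94 and 5.80 CPM in mock leaves (log2 fold change 1.33, SE 0.29, adjusted p = 0.00268). AUR2, an Aurora kinase gene, rose by 1.06, and its paralog AUR1 had 0.84 and passed with the block (adjusted p = 0.00465) but not without it (0.0628). Cytokinesis genes gave 3 calls among 4: KN, the syntaxin that fuses vesicles at the cell plate, had 16.7, 20.3 and 9.89 CPM in stimulated leaves, against 6.79, 7.63 and 7.69 CPM in mock leaves (1.09, SE 0.25, adjusted p = 0.00415). HIK, a kinesin of the phragmoplast, rose by 1.27 and PLE, its microtubule-bundling partner in cytokinesis, by 1.45. MYB3R4, the activator of G2/M genes, rose by 1.51 (SE 0.41), and MYB3R1, a relative with mixed activity, had 0.41 and passed with the block (adjusted p = 0.00232) but not without it (0.394).

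DNA replication and G1/S genes gave values nearer 0. Of 28 tested, 8 rose and none fell (median log2 fold change 0.41), against 9.74% of all genes higher. With the replicate block 15 rose and 2, CYCD4;1 and CYCD5;1, fell, against 20.9% and 18.6%. PCNA1, the sliding clamp of DNA polymerase, had 15.6, 18.6 and 22.1 CPM in stimulated leaves, against 7.99, 7.74 and 14.5 CPM in mock leaves (0.90, SE 0.24, adjusted p = 0.0116). The groups did not overlap, but the call was lost without mock replicate 1, mock replicate 2 or stimulus replicate 3, at log2 fold changes of 0.74 to 0.75. RNR1, the large subunit of ribonucleotide reductase, had 122, 127 and 165 CPM in stimulated leaves, against 63.8, 74.1 and 102 CPM in mock leaves (0.78, SE 0.19, adjusted p = 0.00647). The 6 MCM helicase subunit genes had log2 fold changes of 0.26 to 0.54, of which MCM3 passed. CYCD6;1, a D-type cyclin known from formative divisions of the root, had the largest value of the list, with 12.3, 9.88 and 4.84 CPM in stimulated leaves against 1.85, 2.45 and 1.77 CPM in mock leaves (2.15, SE 0.51, adjusted p = 0.00523). CYCD3;1, a cytokinin-induced D-type cyclin, had 0.78 and passed with the block (adjusted p = 0.00113) but not without it (0.0773).

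Core histone genes, whose RNA accumulates in S phase, rose in 27 of 38 tested cases and fell in none, against 9.74% of all genes higher. The median log2 fold change was 0.98 (0.88 in replicates 1 and 2, 1.07 in the replicate 3 pair). RAT5, an H2A gene, had 35.5, 34.4 and 49.7 CPM in stimulated leaves, against 11.7, 11 and 11.2 CPM in mock leaves (1.82, SE 0.19, adjusted p = 7.32e-07). The replication-independent H3.3 genes AT4G40030 and AT4G40040 had −0.08 and 0.07 and did not pass. Another H3.3 gene, AT5G10980, had log2 differences of 0.30, 0.59 and 0.54 in the 3 pairs. Whether the H3.3 genes differed from each other was not tested. The H3 gene AT1G09200 rose by 1.46. Many histone loci are near-identical in sequence, so the split of reads between single loci is uncertain.

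Inhibitors of cyclin-dependent kinases were tested for 11 genes, of which 4 fell, 1 rose and 6 did not pass. Of all genes 9.34% were lower and 9.74% higher. The median log2 fold change of the 11 was −0.91 (−0.92 in replicates 1 and 2, −0.46 in the replicate 3 pair). SMR1 (AT3G10525), also called LGO, which promotes endoreduplication in the leaf epidermis, had 8.2, 11.1 and 7.39 CPM in stimulated leaves, against 28.1, 31.6 and 35.2 CPM in mock leaves (−1.82, SE 0.25, adjusted p = 2.9e-05). KRP2, an inhibitor of the G1 to S transition, had 1.97, 1.64 and 1.03 CPM in stimulated leaves, against 4.13, 5.92 and 5.01 CPM in mock leaves (−1.69, SE 0.37, adjusted p = 0.0023). Neither pair of groups overlapped. KRP1 and KRP5 fell by 1.25 and 0.99 on the log2 scale. The single rise, of SMR4 (1.03, adjusted p = 0.029), was at low levels of 1.04, 1.02 and 1.09 CPM in stimulated leaves, against 0.652, 0.512 and 0.366 CPM in mock leaves, and the call was lost in 5 of 6 fits that left out a library.

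The division genes were followed back to the earlier times to see what set 10 h apart. The median log2 fold change of the G2/M list was −0.26, −0.54, 0.34, 0.63 and 1.25 at 6, 7, 8, 9 and 10 h, while that of the 16 replication genes was 0.99, 0.97, 0.90, 0.54 and 0.46. CYCB1;1 had values of −0.47, −0.94, 0.27, 0.44 and 1.24 at these times. The mock replicate 3 columns of 6 h and 7 h were identical, so the values at 6 and 7 h share a mock library. The difference itself, the effect at 10 h minus the mean effect at 6 to 9 h, passed for 0 of 21052 genes in either direction in the edgeR fit without a block (0%), with 544 at an unadjusted p under 0.05, and for 9 higher genes in DESeq2. With the replicate block 87 genes (0.413%) had a higher effect at 10 h and 1 (0.00475%) a lower one, and 13 of the 87 were members of the G2/M list. For CYCB1;1 this blocked difference was 1.38 on the log2 scale (SE 0.26, adjusted p = 0.0155), for KN 1.28 (SE 0.20, adjusted p = 0.00967) and for CYCA1;1 1.26 (SE 0.20, adjusted p = 0.00967). The blocked count was not stable to single libraries: the number of higher genes was 0 without mock replicate 1, 1 without stimulus replicate 1 or stimulus replicate 2, 41 without mock replicate 2, 45 without mock replicate 3 and 109 without stimulus replicate 3. With 8 and 9 h as the earlier times and the block, 0 genes passed, and in replicates 1 and 2 only 232 were higher, 21 of them in the G2/M list, and 173 lower.

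**Figure D3:**
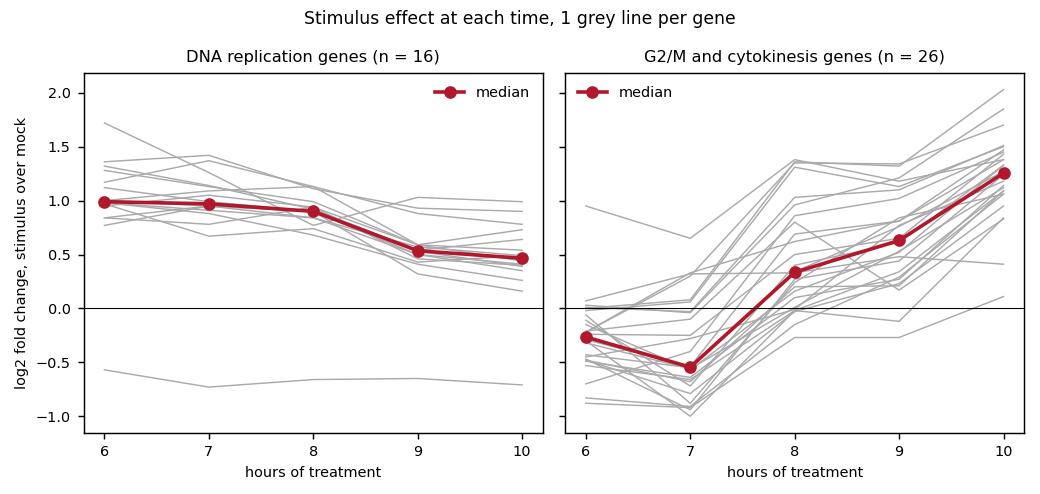
Log2 fold change (stimulus over mock) at each hour of treatment for 16 DNA replication genes (left) and 26 G2/M and cytokinesis genes (right), 1 grey line per gene and the median in red. The replication median is highest at 6 h (0.99) and lowest at 10 h (0.46), and the G2/M median is lowest at 7 h (−0.54) and highest at 10 h (1.25). The values at 6 h and 7 h share an identical mock replicate 3 column.

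Every nuclear photosynthesis gene of the 4 lists that passed was lower in stimulated leaves. Of 16 Calvin cycle genes, 13 fell and none rose, against 9.34% of all genes lower, and with the replicate block all 16 fell, against 18.6%. The median log2 fold change was −1.42, and every stimulated library was below every mock library in all 16 genes, a pattern seen in 17.6% of genes tested. Summed over the list, the levels were 8780, 9140 and 10600 CPM in stimulated leaves, against 16800, 17000 and 33200 CPM in mock leaves. Mock replicate 3 stood well above the other mock libraries, and the median was −1.02 in replicates 1 and 2 and −1.98 in the replicate 3 pair. Without mock replicate 3, 5 of the 16 were called. When only replicates 1 and 2 were fitted, all 16 fell, against 19.6% of all genes lower.

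Among genes of carbon fixation, RBCS2B (AT5G38420), a Rubisco small subunit gene with near-identical copies, had 326, 367 and 332 CPM in stimulated leaves, against 1073, 1144 and 2321 CPM in mock leaves (log2 fold change −2.15, SE 0.34, adjusted p = 0.000128). RCA, Rubisco activase, had 362, 481 and 562 CPM in stimulated leaves, against 884, 949 and 2260 CPM in mock leaves (−1.54, SE 0.38, adjusted p = 0.0069). The RCA call was lost without mock replicate 3 (−0.97), and RCA passed in the edgeR fit of replicates 1 and 2 only (−1.15, adjusted p = 1.37e-05). GAPB, a subunit of the chloroplast glyceraldehyde phosphate dehydrogenase that reduces fixed carbon, had 414, 467 and 373 CPM in stimulated leaves, against 1032, 1004 and 1334 CPM in mock leaves (−1.43, SE 0.21, adjusted p = 4.4e-05). For GAPB the mock libraries were closer together than for the Rubisco genes. SBPASE and PRK, which regenerate the carbon dioxide acceptor, fell by 1.39 and 1.41 on the log2 scale.

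Photosystem and electron transport genes fell in 12 of 29 cases and rose in none, against 9.34% of all genes lower. Their median log2 fold change was −1.06. With the replicate block 27 of 29 fell, against 18.6% of all genes. PSBS, the protein that dissipates excess light energy in photosystem II, had 403, 423 and 350 CPM in stimulated leaves, against 777, 797 and 1074 CPM in mock leaves (−1.17, SE 0.20, adjusted p = 0.000226). PSBO1, a subunit of the oxygen-evolving complex, had 523, 522 and 634 CPM in stimulated leaves, against 770, 778 and 1850 CPM in mock leaves (−1.02, SE 0.34, adjusted p = 0.0404). Its groups did not overlap, and the call was lost without mock replicate 3 (−0.47) and without any of the stimulated libraries (−1.13 to −0.97). The median of the 29 was −0.59 in replicates 1 and 2, where 25 passed against 19.6% of all genes lower, and −1.62 in the replicate 3 pair. The count of 12 became 3 without mock replicate 3, 6 without stimulus replicate 1 and 7 without stimulus replicate 2.

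The number of antenna genes called in the main fit depended on single libraries, mock replicate 3 among them. Of 20 tested, 9 fell and none rose, against 9.34% of all genes lower, with a median log2 fold change of −1.38. With the replicate block 14 of the antenna genes fell, against 18.6% of all genes. Their summed level was 3750, 3490 and 5400 CPM in stimulated leaves, against 4260, 4850 and 18900 CPM in mock leaves. The median was −0.62 in replicates 1 and 2 and −2.12 in the replicate 3 pair. When only replicates 1 and 2 were fitted, 10 of the 20 fell, against 19.6% of all genes lower. LHCB2.1, a protein of the main light-harvesting complex of photosystem II, had 10.4, 14.8 and 65.3 CPM in stimulated leaves, against 14.2, 24.1 and 393 CPM in mock leaves, did not pass (−2.25, adjusted p = 0.234), and had 0.66 without mock replicate 3. LHCA2, of the photosystem I antenna, had 264, 265 and 287 CPM in stimulated leaves, against 386, 382 and 1181 CPM in mock leaves (−1.26, SE 0.43, adjusted p = 0.0422). The 6 photosystem I antenna genes gave 5 calls and the 14 photosystem II antenna genes 4. No antenna gene passed without mock replicate 3, 1 passed without stimulus replicate 1 or stimulus replicate 3, and 3 passed without stimulus replicate 2. Several LHCB1 and LHCB2 loci are near-identical, so their single values are uncertain.

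The chlorophyll list held regulators and enzymes. Of 14 tested, 4 fell and none rose, and 10 fell with the replicate block, against 9.34% and 18.6% of all genes lower. The median log2 fold change was −1.14, with −0.54 in replicates 1 and 2 and −1.74 in the replicate 3 pair. When only replicates 1 and 2 were fitted, 10 of the 14 fell, against 19.6% of all genes lower. Both GLK factors, which activate nuclear genes of photosynthesis and chlorophyll synthesis, fell: GLK1 (AT2G20570) had 18.5, 25.8 and 13.7 CPM in stimulated leaves, against 99.8, 101 and 135 CPM in mock leaves (log2 fold change −2.53, SE 0.30, adjusted p = 4.44e-06), and GLK2 had 10.3, 13.7 and 10.2 CPM in stimulated leaves, against 27.8, 34.3 and 61.2 CPM in mock leaves (−1.85, SE 0.45, adjusted p = 0.00599). Neither call was lost when any 1 library was left out, and for GLK1 the mock libraries lay close together. Of 12 enzyme genes tested 2 fell, PORC and CHLM, by 1.23 and 1.24 on the log2 scale, and 8 fell with the block. HEMA1, which starts the pathway, had 9.18, 6.72 and 27.6 CPM in stimulated leaves, against 7.12, 9.50 and 40.5 CPM in mock leaves (−0.39, adjusted p = 0.835), with replicate 3 high in both arms, and had 0.80 without mock replicate 3. The 4 calls of the list became 10 without mock replicate 1, 7 without mock replicate 2, and 2 without mock replicate 3, stimulus replicate 1 or stimulus replicate 3. Of 104 plastid loci tested 4 rose, against 9.74% of all genes, none fell, and the median was 0.29. With the block 19 rose, against 20.9%, and in replicates 1 and 2 only 15 rose, against 19.7%, in libraries whose plastid share of counts differed between replicates as given above.

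**Figure D4:**
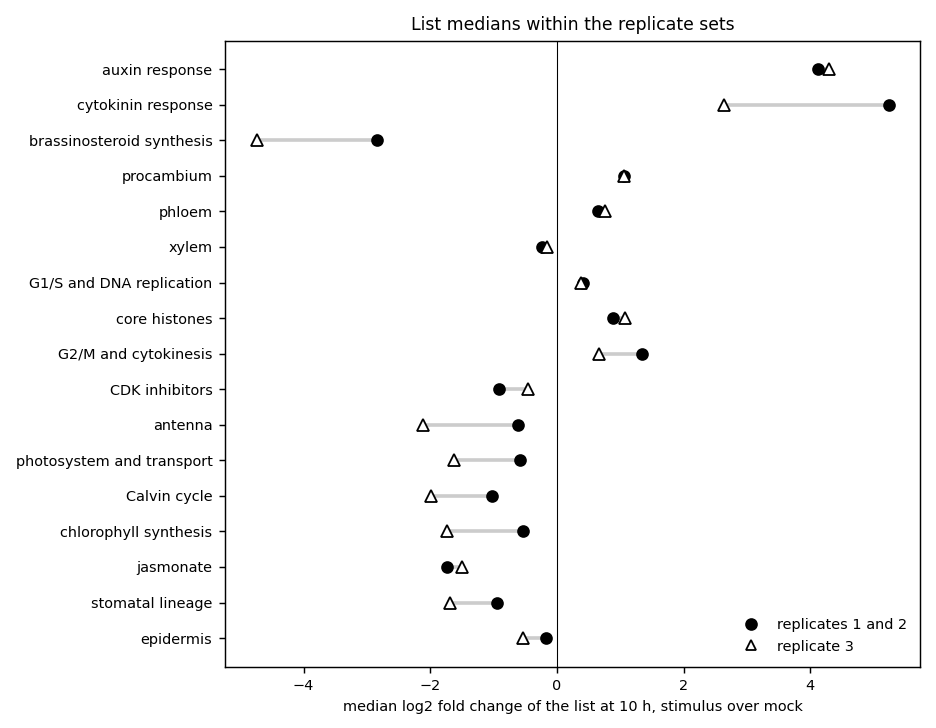
Median log2 fold change at 10 h (stimulus over mock) of each gene list in replicates 1 and 2 (filled circles, fit of these libraries) and in the replicate 3 pair (open triangles, difference of log2 CPM with a prior count of 2). Procambium, phloem and xylem medians lie within 0.2 of each other in the 2 sets, and those of the 4 photosynthesis lists are further below 0 in replicate 3, as for antenna genes at −0.62 and −2.12.

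Markers of other leaf cells were compared because they share the bulk samples. Of 9 stomatal genes, 6 fell and none rose, against 9.34% of all genes lower. The median log2 fold change was −1.23, with −0.95 in replicates 1 and 2 and −1.68 in the replicate 3 pair. TMM, a receptor-like protein of the stomatal lineage, had 8.36, 10.4 and 5.00 CPM in stimulated leaves, against 28.7, 35.9 and 32.4 CPM in mock leaves (−2.03, SE 0.29, adjusted p = 3.5e-05), and EPF2, a peptide that limits entry into the lineage, had 0.383, 0.451 and 0 CPM in stimulated leaves, against 4.13, 4.67 and 6.23 CPM in mock leaves (−4.1, SE 0.75, adjusted p = 0.000562). FAMA, which acts in the last division of the lineage, had 13.9 to 17.5 CPM in stimulated leaves and 13.7 to 18.4 CPM in mock leaves and did not pass. SPCH, the factor that starts the lineage, had 6.29, 5.62 and 2.93 CPM in stimulated leaves, against 6.79, 9.56 and 8.79 CPM in mock leaves and passed with the block (adjusted p = 0.00398) but not without it (0.0576).

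Epidermal and trichome genes were also measured. ATML1, a master factor of the epidermis, had 57.2, 55.4 and 41.0 CPM in stimulated leaves, against 59.6, 64.8 and 59.6 CPM in mock leaves and did not pass (log2 fold change −0.26, adjusted p = 0.535). The 5 epidermal genes summed to 556 to 585 CPM in stimulated leaves and 530 to 656 CPM in mock leaves. CER1, a wax alkane synthesis gene, rose by 1.28 and CER5, a wax transporter gene, fell by 0.29 on the log2 scale, and the CER5 call was lost when any library other than mock replicate 2 was left out. Of 4 trichome genes, the 2 tested were GL3, which fell by 2.07 (adjusted p = 0.019) and lost its call without mock replicate 1, mock replicate 2 or stimulus replicate 3, and GL2, which passed with the block (adjusted p = 0.00186) but not without it (0.178). Of the ground tissue genes SHR and SCR, also active in leaf bundle sheath, SHR had 12.8, 12.9 and 10.8 CPM in stimulated leaves, against 5.98, 7.97 and 10.3 CPM in mock leaves (0.59, adjusted p = 0.0312), and SCR fell by 1.1 (adjusted p = 0.0165). The SHR call was lost without mock replicate 1, mock replicate 2, stimulus replicate 1 or stimulus replicate 2, and the SCR call without mock replicate 1 or stimulus replicate 3.

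Jasmonate genes, which respond to wounding such as leaf detachment, were lower in stimulated leaves in 6 of 10 cases and higher in none (median log2 fold change −1.68). Of all genes tested 9.34% were lower. The count of 6 became 4 to 5 when any 1 library was left out. LOX2 (AT3G45140), the chloroplast lipoxygenase that starts jasmonate synthesis, had 413, 500 and 166 CPM in stimulated leaves, against 3444, 3461 and 3415 CPM in mock leaves (−3.26, SE 0.55, adjusted p = 0.000248). AOS, the next enzyme of the pathway, had 63.2, 71.7 and 33.9 CPM in stimulated leaves, against 192, 186 and 132 CPM in mock leaves (−1.59, SE 0.32, adjusted p = 0.00134). For both genes the arms were far apart. Of the JAZ repressor genes, JAZ1 and JAZ10 had log2 fold changes of −0.37 and 0.55 and did not pass.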

How the data were processed

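RNA counts of the 3 stimulus and 3 mock libraries at 10 h were taken from a table of raw counts per gene locus, 38194 loci by 30 columns, that the authors deposited, per the file headers. The submitters' processing notes name BWA and TAIR10 and give no version or role for either. How reads were counted, and with which annotation, is not given in the sources used. Names came from TAIR10.1 records for 37751 loci, and no coordinates or sequences are printed.

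The test was edgeR 4.0.16 under R 4.3.3 (filterByExpr, 21052 genes; TMM; quasi-likelihood, 1 mean per group over all 30 columns). Contrasts were stimulus minus mock at 10 h, and this effect minus its mean at 6 to 9 h, with Benjamini-Hochberg adjustment and a threshold of 0.05. Standard errors were computed from the fold change and the F statistic. The mock 6 h and 7 h columns of replicate 3 were identical, leaving 29 distinct libraries. They were kept, since each group holds 1 library of replicate 3, and left out as an alternative.

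The 19 gene lists, the tests and the members were chosen with earlier results of these data known. Genes were named by rule: the 10 largest and 10 smallest log2 fold changes past the threshold, given a mean of at least 2 CPM and 1 sign in 3 pairs, up to 2 per list and direction, preset anchor genes, and up to 5 each way for the difference between times, where none passed. Further list members are named to describe a list, chosen with their values in view.

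Same-numbered stimulus and mock libraries deviated together from their group means at 10 h (correlations of 0.33 to 0.446 in 3 of 3 pairs, all above 0.1). Numbers were therefore used as pairs in the pair differences and in the replicate block. The main fit, which gave the values without mention of the block, was unpaired. Replicate 3 standing apart can give such correlations, and 2 of 3 stimulus libraries correlated best with their own number. Alternatives were DESeq2 1.42.0, its size factors, other count filters, the replicate block, each 10 h library left out, fewer libraries, and removal of organelle, rRNA and tRNA loci. On data simulated for the 10 h contrast (20644 genes), 97 genes held a log2 change of 1 and 97 a change of 2, with no other stimulus effect. Of these, 28.9% and 71.1% were recovered, with 5 false calls. In the real contrast 19.1% of genes were called, so these rates need not carry over to it. Intervals for ratios of low counts cover counting error only. The values of 1 list member are not reported here.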

Additional observations from a re-analysis of the deposited data

Results flagged for a closer look

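The effect at 10 h differed from the mean effect at 6 to 9 h, in the edgeR test of that difference with the replicate block, for 14 named genes or list members, 13 of them in the G2/M list. Among cyclins the difference on the log2 scale was 1.26 for CYCA1;1, 1.38 for CYCB1;1, 1.28 for CYCB1;2, 1.26 for CYCB1;4, 1.17 for CYCB2;3 and 1.13 for CYCB2;4. Among mitotic kinases it was 1.23 for CDKB2;1, 1.15 for AUR1 and 0.98 for AUR2, and for CDC20.1, an activator of the anaphase-promoting complex, it was 1.13. For the cytokinesis genes KN and HIK it was 1.28 and 1.22, and for MYB3R4 it was 0.96. SMXL5, a promoter of phloem formation, had 0.97. In the edgeR fit of all libraries without the block 0 genes passed, and in replicates 1 and 2 only, without a block, 232 were higher, 21 of them in the G2/M list. The blocked calls were lost under other choices: 0 genes were higher with 8 and 9 h as the earlier times, 0 without mock replicate 1, and 1 without stimulus replicate 1 or stimulus replicate 2.

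CYCB1;3 (log2 fold change 1.33 at 10 h) and PLE (1.45) had all 3 pairs above 0 at 10 h and all 3 below 0 at an earlier time. The earlier time was 7 h for CYCB1;3 and 6 h for PLE, and the mock replicate 3 columns of 6 h and 7 h were identical. The difference between these single times and 10 h was not tested.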

How the results depend on the processing

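At 10 h the main fit called 2050 genes higher and 1967 lower. With the replicate block there were 4395 and 3923, with replicates 1 and 2 only 4146 and 4118, with the identical columns left out and the block 4139 and 4184, and with the 10 h libraries alone 948 and 845. Without any 1 library there were 1425 to 1705 higher and 1122 to 1664 lower genes. With the block as well, there were 3806 and 3722 without mock replicate 1, 3635 and 3515 without mock replicate 2, 3530 and 2779 without mock replicate 3, 3671 and 3278 without stimulus replicate 1, 3542 and 3705 without stimulus replicate 2, and 3377 and 3019 without stimulus replicate 3. For the difference between 10 h and 6 to 9 h, the 0 higher and 0 lower genes became 87 and 1 with the block, 9 higher with DESeq2, 232 and 173 with replicates 1 and 2 only, and 118 and 42 with the identical columns left out and the block. With 8 and 9 h as the earlier times and the block they were again 0. Without any 1 library there were 0 to 1 higher genes and 0 lower. With the block as well, 0 were higher without mock replicate 1, 41 without mock replicate 2, 45 without mock replicate 3, 1 without stimulus replicate 1 or 2, and 109 without stimulus replicate 3, and 0 to 1 lower. The fits that join the block with other changes were chosen after the data were seen. DESeq2 and other count filters kept both counts at 10 h within 1.5 times.

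Of 82 named genes, 80 kept their side of the threshold with DESeq2, 74 with the block and 59 with only the 10 h libraries. The block ended no call. Directions turned for genes not past the threshold. VND7 (−0.01 in the main fit) was 0 with the block, 0.30 without mock replicate 1, 0.04 without stimulus replicate 1, 0.02 without stimulus replicate 3, and with the block 0.28 without mock replicate 1 and 0.10 without stimulus replicate 1. APL (0.16) was −0.02 in replicates 1 and 2, −0.20 without stimulus replicate 3 (−0.01 with the block added) and at most 0.35 without another library. LHCB2.1 ranged from −3.50 without stimulus replicate 3 to 0.66 without mock replicate 3, and HEMA1 from −1.27 to 0.80 without the same libraries, and MYB46 was 0.04 without stimulus replicate 2 with the block. The causes were not tested.

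Depth limits the low genes: KNAT1, WOX14, LBD15, LBD18, SND1 and NST1 had too few counts to be tested, and a low count of calls in a list does not show that its genes were unchanged.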

Other observations

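Gene families named in the reference annotation, with at least 10 tested members and chosen after their values were seen, add to the response at 10 h. Of 12 expansin A genes, whose proteins loosen cell walls, 6 rose and none fell (median log2 fold change 1.09), and of 52 SAUR-like genes, linked to cell expansion, 24 rose and 3 fell (1.57). Of 13 TCP-1/cpn60 chaperonin genes, whose products fold proteins such as tubulin and Rubisco, 7 rose and none fell (0.74), and of 15 genes of 1 kinesin family 7 rose and none fell (0.75). Of 50 NAC genes 16 rose and 1 fell (0.50), and of 18 Dof genes 8 rose and none fell (0.18). Decreases stood out for the DUF584 senescence regulator family, with 6 of 11 lower and none higher (−1.60), and for FKBP-like isomerases, many of them in the chloroplast, with 6 of 12 lower and none higher (−0.82). Over all genes tested 9.74% were higher and 9.34% lower.

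Mitochondrial loci were lower in 24 of 162 cases and higher in none (median −0.37), against 9.34% and 9.74% of all genes. With the replicate block 62 were lower and none higher, against 18.6% and 20.9%. In replicates 1 and 2 only, 47 were lower and 1 higher, against 19.6% and 19.7%.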
